A study of Rattus norvegicus with 9 samples.

Results

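The 8 genes described here, Il6, Osm, Lif, Osmr, Il10, Il19, Il20 and Il24, encode cytokines of the IL-6, IL-10 and IL-20 families and a receptor subunit. They were taken by symbol from the 2 deposited gene tables. All 8 are among the 6025 gene IDs of the table that sets imiquimod against untreated skin. Of the 8, 1 gene, Il6, is also among the 399 gene IDs of the table that sets imiquimod with lidocaine against imiquimod. Levels of the other 7 in the lidocaine libraries were not analysed here.

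RNA was sequenced from back skin of wild-type Sprague Dawley rats of 250 g, with 3 samples in each of 3 groups. The lidocaine group had imiquimod on the back skin for 6 days and epidural 1% lidocaine, a local anaesthetic, on 4 days from day 3. The imiquimod group had the 6 days of imiquimod alone, an agonist of Toll-like receptor 7 used to induce psoriasis-like inflammation. The untreated group had neither, and skin was taken on day 7. No vehicle or sham injection is among the labelled groups, so effects of handling cannot be told apart from those of the treatments. Whether the samples come from separate rats is not stated, so p-values reflect only sample-to-sample spread, which may be technical.

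Cytokines of the IL-6 family signal through receptors that share the subunit gp130, encoded by Il6st, and through JAK kinases and the transcription factor STAT3. IL-10 acts mainly on leukocytes and restrains their inflammatory output. IL-19, IL-20 and IL-24 are known for acting on keratinocytes, where they promote epidermal thickening in psoriasis, through receptors built from the products of Il20ra, Il20rb and Il22ra1.

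Of the 8 genes, 7 rose and 1, Il20, fell in imiquimod against untreated skin, each at a limma adjusted p under 0.05. Of all 6025 listed rows 87.8% passed, 47% as higher and 40.8% as lower, and 89.4% had an unadjusted p under 0.05. Every listed row differs by at least 1 on the log2 scale, so a count of members past the threshold is near its background and is no result about these genes. The median log2 difference of the 8 was 4.65, also with genes at 0 reads in untreated skin set to their bound. It was 1.15 over all rows and 2.16 over the 3326 rows that were higher. Levels below are normalized counts, obtained by undoing the deposited log2. Differences are on the log2(normalized count + 1) scale with their standard error (SE), which understates changes of low genes.

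Il6 encodes the pro-inflammatory cytokine IL-6. It had 312, 460 and 359 normalized counts in the 3 imiquimod libraries, from 358, 455 and 439 reads, against 0 reads in each untreated library. The groups did not overlap, as in 86.7% of the listed rows, 45.9% as higher, and the imiquimod mean was at least 118-fold higher than a floor of 3 reads per library. Floors cover counting error only. The log2 difference was 8.54 ± 0.27 SE (limma adjusted p = 1.47e-05), at rank 53 from the highest of the 6025 rows.

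The upstream sequence of Il6 is shown because Il6 is the member listed in both comparisons. The 250 bases before its RefSeq start (chr4:5894576-5894825, minus strand, GRCr8) are printed 5′ to 3′. Capitals mark, in this order, matches to CRE (TGACGTCA), to C/EBP (TTGCNNAA) and to NF-kB, which do not overlap. The C/EBP match is on the other strand, so the printed letters are its reverse complement.
Il6: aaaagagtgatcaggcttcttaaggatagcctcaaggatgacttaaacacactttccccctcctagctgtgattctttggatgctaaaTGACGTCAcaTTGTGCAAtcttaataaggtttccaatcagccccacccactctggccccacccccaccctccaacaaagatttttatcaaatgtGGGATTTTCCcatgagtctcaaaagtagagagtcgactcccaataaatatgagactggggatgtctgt
The 3 matches end 155, 145 and 59 bases before the start. Of 27457 RefSeq windows of this length, 1.7% hold a CRE match, 9.2% a C/EBP match and 6.41% an NF-kB match on either strand. These matches describe letters, not bound sites.

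Osm encodes oncostatin M, made largely by leukocytes. It had 368, 525 and 573 normalized counts in the imiquimod libraries, against 26.5, 8.26 and 33.4 in the untreated libraries. All 3 imiquimod libraries were above all untreated ones, and untreated replicate 2, with 8 reads, was the lowest. The mean was 489 ± 107 with imiquimod and 22.7 ± 13.0 without (SD, n = 3 each), 21.5-fold higher. The log2 difference was 4.54 ± 0.55 SE (limma adjusted p = 0.00099).

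Lif encodes leukemia inhibitory factor, another ligand of gp130 receptors. It had 106, 141 and 184 normalized counts with imiquimod, against 29.9, 16.5 and 27.4 without. The groups did not overlap, and the mean was 5.83-fold higher with imiquimod. Its log2 difference of 2.50 ± 0.36 SE (limma adjusted p = 0.0019) was the smallest among the 7 genes that rose.

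Osmr encodes the subunit that pairs with gp130 to bind oncostatin M. It had 834, 2463 and 2357 normalized counts in the imiquimod libraries, against 199, 106 and 343 in the untreated libraries. The groups did not overlap, but the highest imiquimod library was 2.96-fold above the lowest. The log2 difference was 3.12 ± 0.61 SE (limma adjusted p = 0.0052).

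Il10 encodes the anti-inflammatory cytokine IL-10. It had 239, 221 and 274 normalized counts with imiquimod, from 274, 218 and 335 reads, against 0 reads in all 3 untreated libraries. Its imiquimod libraries lay closest together, with a coefficient of variation of 11.1%, against 20.2% to 93.5% for the other 7 genes. The imiquimod mean was at least 76.4-fold above the floor of 3 reads per library, and the log2 difference was 7.93 ± 0.25 SE (limma adjusted p = 1.47e-05).

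Il19 had 32.2, 89.1 and 68.7 normalized counts with imiquimod, from 37, 88 and 84 reads, against 0, 0 and 4.05 in untreated libraries. The 1 untreated library with any reads had 4. The log2 difference was 5.11 ± 0.75 SE (limma adjusted p = 0.0020), and 5.89 without untreated replicate 3.

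Il24 had 658, 826 and 1072 normalized counts with imiquimod, against 23.0, 27.9 and 42.6 without. The groups did not overlap, and the mean was 852 ± 209 with imiquimod and 31.2 ± 10.2 without (SD, n = 3 each), 27.3-fold higher. The log2 difference was 4.75 ± 0.35 SE (limma adjusted p = 0.00020).

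Il20 was the member that fell. It had 0, 5.06 and 8.17 normalized counts with imiquimod, from 0, 5 and 10 reads, against 40.3, 21.7 and 43.6 in untreated libraries, from 35, 21 and 43 reads. All 3 imiquimod libraries lay below all untreated ones, and the imiquimod mean was 7.98-fold lower. The log2 difference was -3.18 ± 0.86 SE (limma adjusted p = 0.015). Without imiquimod replicate 1 it was -2.22, and leaving out replicate 3 instead gave -3.82. The call was lost with a pseudocount of 0.1 (limma adjusted p = 0.057) and when the adjustment covered 23148 protein-coding genes (0.056), in a range of 0.0089 to 0.057 over all alternatives. Its imiquimod level rests on at most 10 reads per library.

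**Figure D1:**
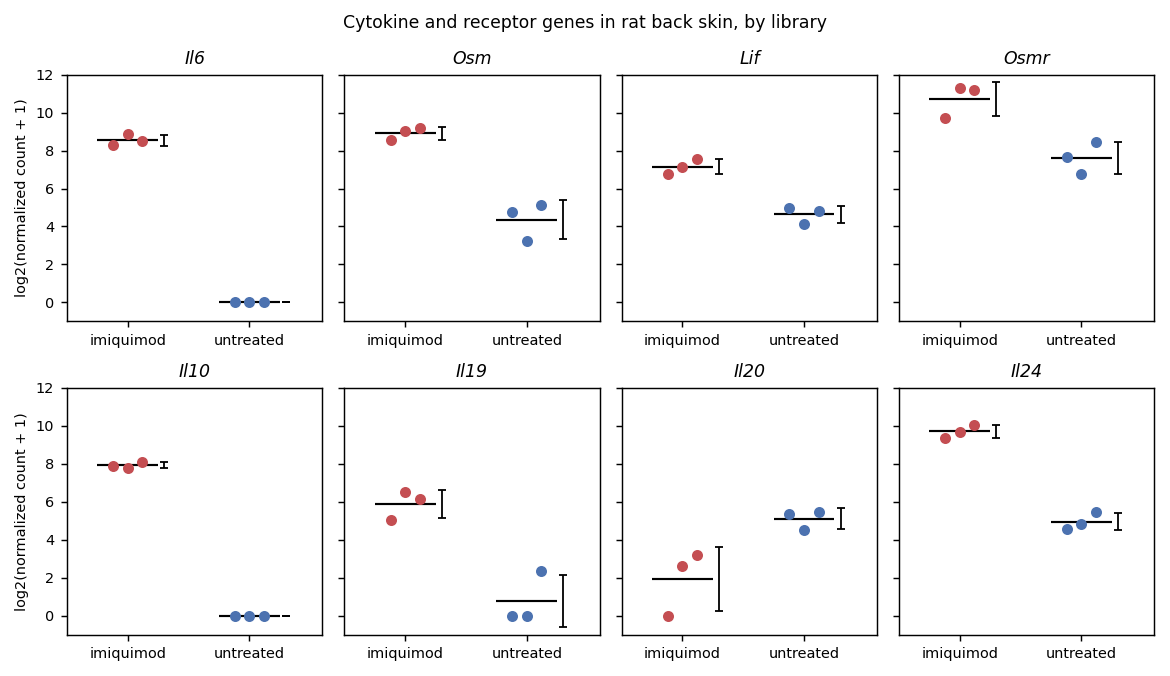
Each panel plots 1 gene, with log2(normalized count + 1) on the y axis, a point for each imiquimod and untreated library, a line at the group mean and a bar of ± 1 SD of these log2 values (n = 3). In 7 panels the imiquimod points lie above the untreated points, and for Il20 they lie below, with 1 imiquimod library at 0.

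In the RefSeq gene order of GRCr8, Il24, Il20, Il19 and Il10 are consecutive protein-coding genes. Il20, which fell, thus lies between Il24 and Il19, which rose. The 3 protein-coding genes on one side, Fcamr, Pigr and Fcmr, and the 3 on the other, Mapkapk2, Dyrk3 and Eif2d, are not listed in the imiquimod table. Osm and Lif are also neighbours, and of the 3 genes on either side of them 1 was listed, Tbc1d10a, which fell by 1.08 ± 0.27 SE on the log2 scale (limma adjusted p = 0.012).

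**Figure D2:**
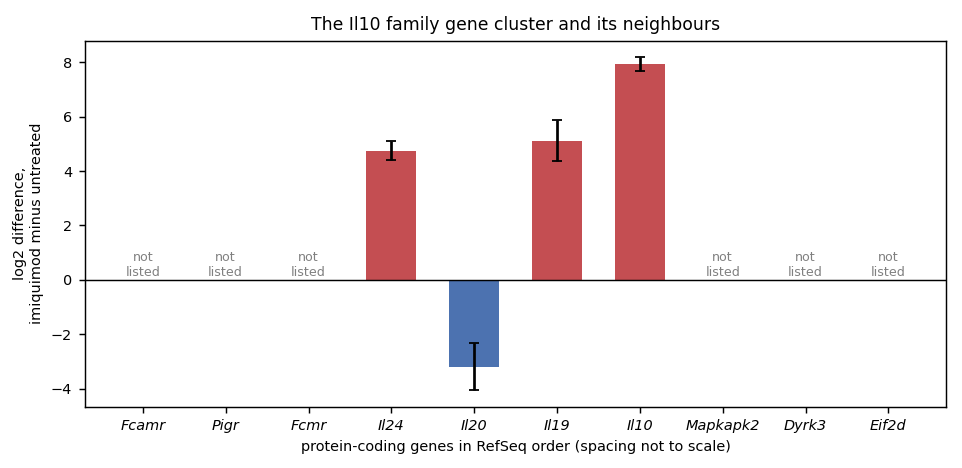
The y axis is the log2 difference, imiquimod minus untreated, of each listed gene in RefSeq order along the x axis, with SE as error bars (n = 3 libraries per group). Il24, Il19 and Il10 are higher, Il20 between Il24 and Il19 is lower at -3.18, and the 6 flanking genes are not listed.

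The upstream windows of the IL-20 family genes are shown because these neighbours differ in direction. They are the 250 bases before the RefSeq starts on the minus strand of GRCr8, chr13:44910761-44911010 for Il24, chr13:44936894-44937143 for Il20 and chr13:44958715-44958964 for Il19, printed 5′ to 3′. Capitals mark matches to STAT (TTCNNNGAA) in Il24 and Il19 and to ISRE (GAAA, then NN, then GAAA, where N is any base), an element of interferon-regulated genes, at 2 places in Il19, with no overlap.
Il24: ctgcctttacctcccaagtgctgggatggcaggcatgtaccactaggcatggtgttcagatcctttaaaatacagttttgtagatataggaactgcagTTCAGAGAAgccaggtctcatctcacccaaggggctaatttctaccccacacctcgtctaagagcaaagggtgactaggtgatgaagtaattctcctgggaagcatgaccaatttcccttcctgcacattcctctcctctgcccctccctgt
Il20: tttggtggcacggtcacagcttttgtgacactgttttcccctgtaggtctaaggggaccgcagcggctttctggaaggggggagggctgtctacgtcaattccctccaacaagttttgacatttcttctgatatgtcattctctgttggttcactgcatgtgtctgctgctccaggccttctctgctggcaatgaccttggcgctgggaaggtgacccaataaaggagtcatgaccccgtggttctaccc
Il19: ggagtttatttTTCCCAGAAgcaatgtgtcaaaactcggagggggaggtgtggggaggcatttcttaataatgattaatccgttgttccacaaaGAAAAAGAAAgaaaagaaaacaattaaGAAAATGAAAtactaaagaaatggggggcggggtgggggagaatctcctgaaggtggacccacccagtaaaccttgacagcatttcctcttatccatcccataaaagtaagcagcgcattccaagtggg
The Il20 window held none of the 6 motifs searched on both strands, which also included AP-1 (TGANTCA), and this says only that these letters are not in this window. A STAT match stands in 7.52% and an ISRE match in 3.29% of the 27457 windows. The Osmr window held 1 AP-1 match, present in 6.36% of windows. Of the 8 genes, 5 were matched in the RefSeq promoter table, and Osm, Lif and Il10 were not.

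Imiquimod replicate 1 was the lowest imiquimod library for 7 of the 8 genes, Il20 included, and replicate 2 was lowest for Il10. Untreated replicate 2 was the lowest untreated library for Osm, Lif, Osmr and Il20. Leaving out any single library kept the limma adjusted p of all 8 genes under 0.05, with the highest, 0.046, for Il20.

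Receptor genes of the gp130 family moved in both directions. Of 9 in the list 7 were listed, 2 rose, 3 fell and 2 did not pass, with a median log2 difference of 1.28 against 1.15 over all rows. Besides Osmr, the IL-6 receptor gene Il6r rose, with 3981, 4126 and 3386 normalized counts with imiquimod against 1443, 1191 and 2248 without (1.28 ± 0.33 SE, limma adjusted p = 0.012). Il11ra1 of the IL-11 receptor, Il31ra of the receptor for the itch cytokine IL-31 and Cntfr of the ciliary neurotrophic factor receptor fell, with log2 differences of -1.59 ± 0.38, -2.39 ± 0.54 and -3.14 ± 0.61 SE. Without imiquimod replicate 3 the Cntfr difference was -3.76.

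Il6st, for gp130, had 1183, 6138 and 5079 normalized counts with imiquimod, against 905, 365 and 1733 without. The groups overlapped, and the difference of 2.00 ± 0.83 SE did not pass (limma adjusted p = 0.057). Lifr, which pairs with gp130 to bind LIF, had 163, 1159 and 777 with imiquimod, against 236, 96.1 and 371 without (1.37 ± 0.86 SE, limma adjusted p = 0.16). In both genes, as in Osmr, imiquimod replicate 1 and untreated replicate 2 were the lowest of their groups. Without imiquimod replicate 1 both passed, at differences of 2.75 (limma adjusted p = 0.019) and 2.22 (0.026), and Il6st also passed without untreated replicate 3, at 2.53 (0.044).

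Of the 7 receptor genes of the IL-10 and IL-20 families 3 were listed in the imiquimod table, 2 rose and 1 fell. Their median log2 difference was 1.97, against 1.15 over all rows and 2.16 over the rows that were higher. Il10ra, for the ligand-binding subunit of the IL-10 receptor, had 1259, 2095 and 1981 normalized counts with imiquimod, against 25.3, 26.9 and 75.0 without, a rise of 5.51 ± 0.50 SE (limma adjusted p = 0.00035). Il10rb, for its partner subunit, rose by 1.97 ± 0.29 SE. IL-10 and both subunits of its receptor were thus higher at the RNA level. Il20ra, for a subunit of the receptors of IL-19, IL-20 and IL-24, had 49.6, 64.8 and 24.5 with imiquimod, against 180, 113 and 255 without, and fell by 1.98 ± 0.49 SE (limma adjusted p = 0.011).

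Of 11 further ligands of these families 6 were listed, 4 rose and 2 fell. Their median log2 difference was 2.41, and 0.86 with the 3 genes at 0 reads in untreated skin set to their bound. Ebi3 and Il27 encode the subunits of IL-27. Ebi3 had 6092, 4046 and 3991 normalized counts with imiquimod, against 88.7, 74.4 and 65.9 without (5.91 ± 0.30 SE, limma adjusted p = 5.9e-05). Il27 had 43, 47 and 68 reads with imiquimod and 0 in the untreated libraries, at least 14.7-fold higher than the floor of 3 reads per library. The interferon lambda gene Ifnl1 had 4, 4 and 14 reads and Il22 had 1, 2 and 16, both against 0 reads without imiquimod. The Il22 call did not hold when any untreated library or imiquimod replicate 2 was left out (highest limma adjusted p = 0.082). Ctf1, for cardiotrophin 1, fell by 1.07 ± 0.29 SE, a call lost with a replicate block (limma adjusted p = 0.054) and with adjustment over all protein-coding genes (0.055). Il11 fell by 1.05 ± 0.38 SE, but leaving out any 1 library except untreated replicate 1 ended the call (highest limma adjusted p = 0.091).

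Of 11 JAK kinase and STAT genes 9 were listed, and all 9 rose, where 47% of all 6025 rows passed as higher. Their median log2 difference was 1.69, against 1.15 over all rows and 2.16 over the rows that were higher. Stat2 and Jak3 rose by 2.92 ± 0.25 and 3.47 ± 0.49 SE. Stat3, the main factor downstream of gp130 and of the IL-10 receptor, had 10316, 13747 and 11888 normalized counts with imiquimod, against 5259, 4464 and 6761 without, a rise of 1.14 ± 0.29 SE (limma adjusted p = 0.012). Jak1, a kinase of gp130 receptors, rose by 1.28 ± 0.39 SE, but leaving out any 1 library except untreated replicate 3 and imiquimod replicate 1 ended the call (highest limma adjusted p = 0.065).

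Of 12 feedback inhibitor genes 7 were listed, of which 6 rose and Cish fell. Their median log2 difference was 1.68, against 1.15 over all rows and 2.16 over the rows that were higher. Socs3, which blocks gp130 signalling and is itself a STAT3 target, had 1285, 1613 and 2276 normalized counts with imiquimod, against 253, 90.9 and 196 without (3.34 ± 0.47 SE, limma adjusted p = 0.0017). Socs1 and the phosphatase gene Ptpn6 rose by 2.07 ± 0.34 and 2.36 ± 0.27 SE.

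**Figure D3:**
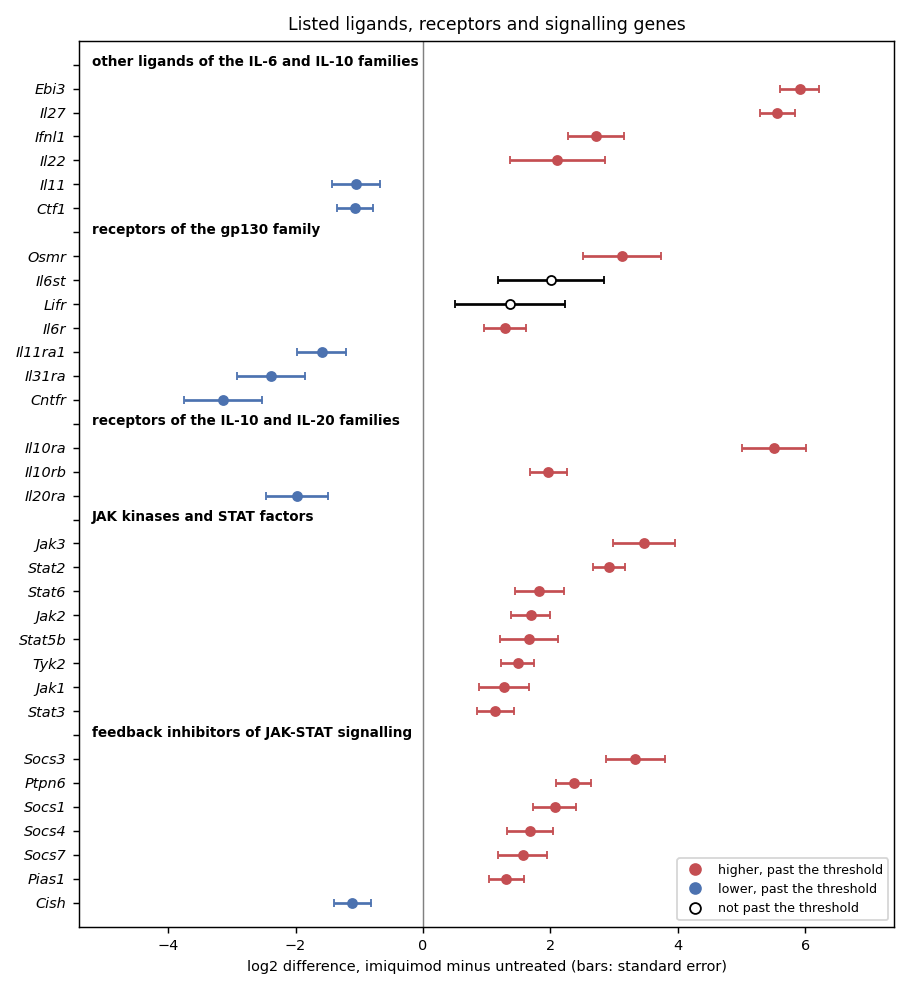
Points show the log2 difference, imiquimod minus untreated, of listed pathway genes, with SE as error bars (n = 3 libraries per group). The 8 JAK and STAT genes drawn lie right of 0, while gp130 family receptors lie on both sides, from Osmr at 3.12 to Cntfr at -3.14.

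Of 24 STAT3 target genes, Il6 and Osmr among them, 11 were listed and all 11 rose, against 47% of all rows. Their median log2 difference of 3.12 is the value of Osmr itself, so neither the count nor the median is separate from the members. Apart from Il6 and Osmr, the differences ran from 1.88 ± 0.35 SE for Lcn2 to 6.33 for Ccl2. The median was 1.15 over all rows and 2.16 over the rows that were higher. Ccl2, a monocyte chemokine gene, rose by 6.33 ± 0.48 SE, Batf, for a lymphocyte transcription factor, by 5.51 ± 0.35 and Lbp, for an acute-phase protein, by 4.18 ± 0.33.

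Of 20 keratinocyte genes known to respond to IL-20 cytokines or oncostatin M, 14 were listed, 10 rose, 3 fell and 1 did not pass. Their median log2 difference was 3.53, against 1.15 over all rows and 2.16 over the rows that were higher. The list sets no direction of response for a gene. A fall is thus no exception to it, and the median pools genes that may respond either way. Serpinb3, a serine protease inhibitor gene, had 442, 802 and 1086 normalized counts with imiquimod, against 0, 3.10 and 0 without, and S100a9, an alarmin gene, rose by 5.53 ± 0.33 SE. S100a7a, Ivl and Krt2 fell, with log2 differences of -4.24 ± 0.91, -3.81 ± 0.38 and -2.81 ± 0.34 SE. The S100a7a difference was -3.59 without imiquimod replicate 2 and -5.32 without replicate 3.

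Of 12 myeloid genes known to respond to IL-10, 8 were listed, 7 rose and Nfil3 fell. Their median log2 difference was 2.21, close to the 2.16 over the rows that were higher, and 87.8% of all rows passed. Tnip3, for an inhibitor of NF-kB signalling, had 0 reads in untreated skin and was at least 242-fold higher than the floor of 3 reads per library. The scavenger receptor gene Cd163 rose by 3.36 ± 0.54 SE.

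Markers of cell types that can make or sense these cytokines differed as well. All 12 macrophage and monocyte markers were listed and rose, with summed levels of 324792 to 379508 normalized counts with imiquimod and 30618 to 58204 without. Of 11 T cell markers 10 were listed and rose (20469 to 26190 with imiquimod, 708 to 2104 without). Cd8a had the largest mean with imiquimod, 12177 against 21.8 without, while Cd3e, Cd3d and Cd3g rose 12.2, 10.3 and 10.8-fold. The Foxp3 call ended without imiquimod replicate 1 (limma adjusted p = 0.059) or 2 (0.053). Of 13 neutrophil markers 9 were listed and 7 rose (77050 to 120900 with imiquimod, 3607 to 5187 without). Most of the imiquimod sum came from S100a8 and S100a9 (means 34812 and 55321), which are also in the keratinocyte response list. Fpr1, at 0 reads in untreated skin, did not pass, but passed as higher without imiquimod replicate 1 (limma adjusted p = 0.0023). Mpo, at a log2 difference of -1.93, did not pass (0.066), but passed as lower without imiquimod replicate 3 (0.043). Of 7 B and plasma cell markers 5 were listed, 4 rose and 1, Mzb1, fell (-2.87 ± 0.57 SE, limma adjusted p = 0.0054). Cd79b had 0 reads in untreated skin. Of 11 keratinocyte markers 6 were listed, 4 rose and 1, Krt15, fell (419825 to 849485 with imiquimod, 427852 to 522595 without). The Krt15 call ended without any untreated replicate or imiquimod replicate 3 (highest limma adjusted p = 0.083). The rise of Dsc1 did not hold when imiquimod replicate 2 was dropped (limma adjusted p = 0.101), and the same was true of imiquimod replicate 3 (0.091). Dropping the first or the second untreated library had the same result (0.069 and 0.101). Krt1, at a log2 difference of -1.44, did not pass (limma adjusted p = 0.077), but was called lower once imiquimod replicate 1 was dropped (0.043). Of 8 fibroblast markers 3 were listed. The collagen genes Col1a1 and Col3a1 fell, while Pdgfra was higher by 1.14 on the log2 scale and did not pass (limma adjusted p = 0.051), but passed as higher without untreated replicate 3 (0.021) or imiquimod replicate 1 (0.047). The summed level of the 3 was 357493 to 369659 with imiquimod and 1652920 to 3747590 without. Their part in the cytokine differences was not tested, and in these bulk samples fewer cells of a type and less RNA per cell cannot be told apart.

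Endothelial markers rose in all 3 listed of 7. However, Cdh5 and Kdr both lost their calls without imiquimod replicate 2 (limma adjusted p = 0.097 and 0.063) or 3 (0.088 and 0.063), which leaves 1. The Cdh5 call also ended without untreated replicate 1 (limma adjusted p = 0.073) or 2 (0.094). Hair follicle markers fell in 10 of 10 and adipocyte markers in 4 of 5 listed of 7. The remaining adipocyte marker, Pparg, rose by 1.22 ± 0.28 SE (limma adjusted p = 0.0086). Mast cell markers rose in 2 and fell in 3 of 5 listed of 8. Of the mast cell markers that fell, Tpsb2 lost its call without any 1 library except untreated replicate 1 (highest limma adjusted p = 0.124). The hair follicle marker Krt85 lost its call without untreated replicate 1 (0.054) or 2 (0.057). The 1 listed skeletal muscle marker of 8, Casq1, fell, a call that ended without untreated replicate 1 (limma adjusted p = 0.095) or 3 (0.075) or imiquimod replicate 1 (0.066) or 3 (0.078). Reads on the listed genes came to 15947423 to 22929894 per library in the imiquimod table and 417714 to 803921 in the lidocaine table, and total depth is unknown.

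The lidocaine comparison asks how skin differed with the injections under the same imiquimod course. Il6 had 473, 1252 and 731 normalized counts in the lidocaine libraries, from 482, 1460 and 589 reads, against 312, 460 and 359 in the imiquimod libraries. All 3 lidocaine libraries were above all imiquimod libraries, the closest pair being 473 and 460, and groups did not overlap in 71.9% of the 399 listed rows, 27.1% as higher. The means were 819 ± 397 with lidocaine and 377 ± 76.0 with imiquimod alone (SD, n = 3 each), a ratio of 2.17. The log2 difference of 1.02 ± 0.51 SE did not pass (limma adjusted p = 0.084, unadjusted p = 0.073), with a 95% interval of -0.12 to 2.16. So 0 of 1 member passed, and 0 of 1 at an unadjusted limma p under 0.05, where 32.1% and 68.9% of rows did. Il6 did not pass in limma-voom on recovered reads either (adjusted p = 0.074), nor in any of 12 alternatives, where the adjusted p was 0.060 to 1. The difference was 0.66 without lidocaine replicate 2.

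Against a floor of 3 reads per untreated library, the Il6 mean was at least 256-fold higher with imiquimod and lidocaine and at least 118-fold higher with imiquimod alone. Imiquimod values are equal in both tables, so these levels share 1 scaling.

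**Figure D4:**
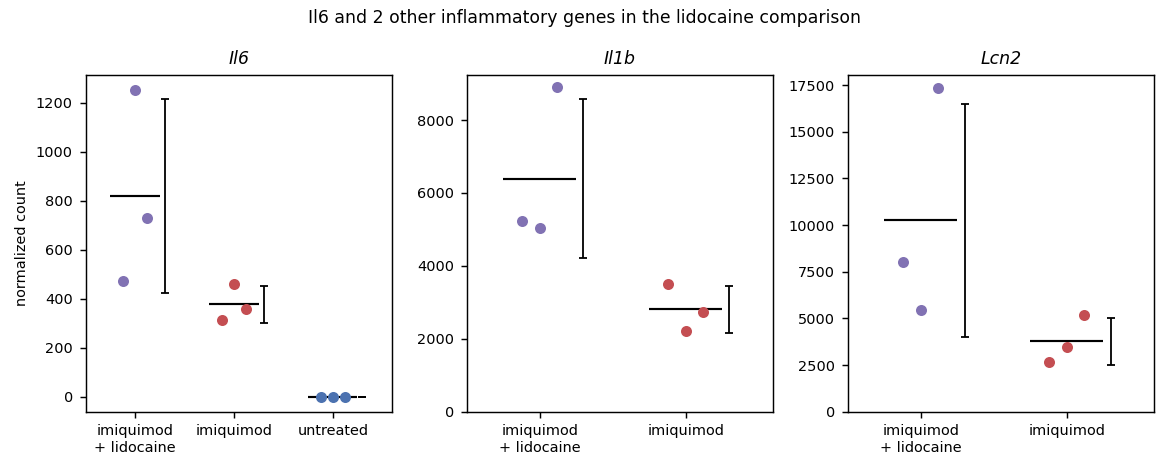
Normalized counts of Il6, Il1b and Lcn2 are plotted per library for imiquimod with lidocaine, imiquimod and, for Il6, untreated skin, with lines at the means and bars of ± 1 SD (n = 3). The Il6 lidocaine points at 473, 731 and 1252 lie above the imiquimod points, and the untreated points are at 0.

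Of the 99 other genes in the pathway lists 8 were listed in the lidocaine table, of which 1 fell and 7 did not pass. No gp130 receptor, JAK, STAT, feedback inhibitor, further ligand or myeloid IL-10 response gene was listed there. Il20ra had 32.4, 7.72 and 7.45 normalized counts with lidocaine, against 49.6, 64.8 and 24.5 with imiquimod alone (-1.70 ± 0.65 SE, limma adjusted p = 0.063). Il22ra1, whose product pairs with that of Il20rb to bind IL-20 and IL-24, had 976, 416 and 194 with lidocaine, against 1118, 1296 and 1056 with imiquimod alone (-1.43 ± 0.61 SE, limma adjusted p = 0.070). All lidocaine libraries were below the imiquimod ones for Il22ra1, while for Il20ra lidocaine replicate 1 overlapped with imiquimod. Without lidocaine replicate 1 both passed, at differences of -2.36 (limma adjusted p = 0.031) and -2.02 (0.036).

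Il1b, for an inflammatory cytokine, had 5233, 5041 and 8911 normalized counts with lidocaine, against 3498, 2215 and 2726 with imiquimod alone (1.16 ± 0.47 SE, limma adjusted p = 0.067). Lcn2, for an antimicrobial protein, had 7995, 5430 and 17320 with lidocaine, against 2656, 3468 and 5167 with imiquimod alone (1.33 ± 0.56 SE, limma adjusted p = 0.069). Il6 was highest in lidocaine replicate 2, whereas Il1b and Lcn2 were highest in replicate 3. Ivl, for the cornified envelope protein involucrin, had 84.5, 119 and 122 with lidocaine, against 687, 410 and 320 with imiquimod alone, and fell by 2.06 ± 0.49 SE (limma adjusted p = 0.019). That call was lost without imiquimod replicate 1 (0.065), with a mean of at least 10 (0.060) and with adjustment over all protein-coding genes (1).

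Of 13 neutrophil markers 2 were listed in the lidocaine table, Camp and Mmp8, with summed levels of 168 to 501 normalized counts with lidocaine and 114 to 146 with imiquimod alone. Camp rose by 1.46 ± 0.48 SE (limma adjusted p = 0.046), a call lost without any imiquimod replicate or lidocaine replicate 2 or 3 (adjusted p up to 0.098), and Mmp8 did not pass (0.087). Of 11 keratinocyte markers 4 were listed and did not pass, with summed levels of 29334 to 134522 with lidocaine and 100617 to 341256 with imiquimod alone. Without lidocaine replicate 1, 2 of them passed as lower, the desmosomal cadherin genes Dsg1, at a log2 difference of -1.71, and Dsc1 (limma adjusted p = 0.043 for both). No macrophage, T cell, B cell, mast cell, fibroblast or endothelial marker was listed. The part of these cells in the Il6 values was not tested.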

How the data were processed

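Values are log2(normalized count + 1) per gene and library, as the authors deposited them in 2 tables that hold only listed genes. Per the submitters' processing notes, bcl2fastq, STAR 2.5.3a and DESeq2 were used. For the counting tool, strand setting, genome build, annotation and listing rule, the sources used here give nothing. After removal of the log, 100% of values of up to 2000 reads were whole multiples, within 0.01, of a step for each library, and so were turned into reads. Imiquimod values were equal in both tables (largest difference 4.97e-09).

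Each table was fitted whole with limma 3.58.1 (lmFit, eBayes) in R 4.3.3 and no replicate term. Adjustment was by Benjamini-Hochberg over all its rows, at a threshold of 0.05. Python 3.11.15, numpy 2.4.6, pandas 2.3.3 and matplotlib 3.10.9 were used for tables and figures. The fit was also run on simulated rows that were not selected by their difference, so that run does not cover the effect of listing. Although the listing rule is not given, every listed row differs by at least 1 on the log2 scale in these libraries. A set of rows limited in this way makes p-values too small.

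The members and lists were chosen with earlier results of these data known. Named genes are the members, up to 4 genes per pathway list with the smallest adjusted p, and per member past the threshold the 2 rows with a symbol, a mean of at least 100 and the most similar profile. Other genes were named after their values were seen, and 1 gene of the JAK and STAT list is counted but not reported here by itself. Promoter windows and gene order are from RefSeq GRCr8. Alternatives were each library left out, a replicate block, a pseudocount of 0.1, a mean of at least 10, trend and robust variances, adjustment over 23148 protein-coding genes and, chosen after seeing the data, limma-voom on recovered reads.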

Additional observations from a re-analysis of the deposited data

How the results depend on the processing

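Of the 8 members past the threshold in the imiquimod comparison, Il20 was lost with a pseudocount of 0.1 and with adjustment over all protein-coding genes, leaving 7, and 8 passed in the other alternatives. Over the alternatives of the genes named by the fixed rule, 695 values kept their direction and side of the threshold, 10 lost the call and 2 gained it. Genes named after their values were seen are not in this count. Among them Il11, Il22, Jak1, Foxp3, Tpsb2, Krt15, Dsc1, Cdh5, Kdr, Krt85 and Casq1 lost imiquimod calls with single libraries left out. Camp lost its call in the lidocaine comparison. Il6st, Lifr, Krt1, Fpr1, Mpo and Pdgfra gained calls in the imiquimod comparison, and Dsg1 and Dsc1 in the lidocaine comparison. In the lidocaine comparison 128 rows passed. This count was 56 with a pseudocount of 0.1, 1 with a mean of at least 10, 2 with adjustment over all protein-coding genes and 22 to 147 with 1 library left out. The 1 pathway gene called there became 0 with a mean of at least 10, 0 with adjustment over all protein-coding genes and 0 to 3 with 1 library left out. The adjustment alternative differs only in the number of genes, and the cause of the other changes was not tested. In the imiquimod comparison 5287 rows passed, and 4412 to 5408 with 1 library left out.

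With the replicate number as a block, 4756 rows, 8 members and 55 pathway genes passed in the imiquimod table, and 92 rows, 0 members and 1 pathway gene in the lidocaine table. Of the named genes Ctf1 lost its call with the block (limma adjusted p = 0.054). Same-numbered libraries did not deviate together. Their correlations were -0.024, -0.23 and -0.014 over the rows of the imiquimod table and -0.18, -0.094 and -0.064 in the lidocaine table. With 3 libraries per group these values cannot tell whether same-numbered samples share a batch or a day.

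Il20, Il22 and Ifnl1, and Il19 in untreated skin, rest on few reads. An unlisted gene is not shown to be unchanged.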

Other observations

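For each of the 8 genes the rows with the most similar profile in the imiquimod table are given by the root-mean-square distance of log2 values, each centred on its own mean over 6 libraries, among the 3795 named rows that average 100 normalized counts or more. These are descriptions with no test. A small distance here requires a similar imiquimod difference, and it does not show expression in the same cells. For Il10 the nearest was Pdcd1, the gene of the T cell checkpoint receptor PD-1, at a distance of 0.077 and a log2 difference of 8.03, followed by Lilrc2 at 0.22. For Il6 they were Clec4e, a myeloid C-type lectin receptor gene, at 0.23 and Ms4a4c at 0.24. For Osm they were Cd80, the gene of a T cell costimulatory ligand, at 0.19 and Dnah2 at 0.23. Il24 was nearest to Klra2 at 0.15 and to Slpi, an epithelial protease inhibitor gene, at 0.21. Il19 was nearest to the macrophage scavenger receptor gene Msr1 at 0.26 and to Aoah at 0.29. Lif was nearest to Dclre1c at 0.12 and the lipid droplet gene Plin2 at 0.20, and Osmr to Nhlrc3 at 0.24 and Plcb1 at 0.25. Il20 had the largest distances of the 8, with Actc1 at 0.40 and Glb1l2 at 0.45, and the fall of Actc1 lost its call without untreated replicate 1 or 3.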
